A study of Mus musculus with 20 samples.

Results

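Bone morphogenetic proteins (BMPs), transforming growth factor beta (TGF-beta) and the activins form 1 family of secreted signals, and 43 genes of their pathway were measured by RNA-seq in 5 cell populations sorted from mouse dorsal skin. The genes were taken by name from the table of 53380 genes, with earlier results of these data known. They comprised ligands, receptors, extracellular inhibitors, Smads, latent TGF-beta binding proteins and target genes. Genes were tested if 3 or more of the 20 libraries reached a value of 10, which 42 of the 43 genes and 17204 genes in all did. Chrd, encoding the BMP antagonist chordin, lay between 0 and 6.94 in every library and was not tested.

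Ligands of this family act through paired type I and type II receptor kinases, which phosphorylate receptor-regulated Smads. Smad1 and Smad5 carry the BMP signal, Smad2 and Smad3 carry the TGF-beta and activin signal, and both arms share Smad4. Secreted antagonists such as gremlin, noggin and follistatin sequester the ligands, Smad6 and Smad7 block the receptors and Smads from within, and the Id genes are classical BMP targets. In skin, BMP signalling is known for holding hair follicle stem cells at rest, and TGF-beta for restraining keratinocyte growth and for keeping T cells and Langerhans cells in the epidermis.

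The study asked how Thy1-expressing basal keratinocytes differ from the cells around them. The 5 populations were Thy1hi keratinocytes (labelled Thy1+ScaI+, 4 libraries), Thy1- keratinocytes (labelled Thy1-ScaI+, 4), YFP-marked Thy1+ cells (YFP+, 3), hair follicle stem cells (HFSCs, labelled CD34+ScaI-, 4) and dendritic epidermal T cells (DETCs, labelled Thy1+ScaI-, 5). Every library carried the genotype label Thy1.2CreERT2-Rosa26-EYFP and was labelled as untreated, with age labels running from 8 to 27 weeks, 1 value a library, whereas the methods describe wild-type C57BL/6J mice of a single age and, for YFP+ cells, reporter mice taken after tamoxifen. In the reporter strain a transgene with the Thy1 promoter drives the inducible Cre, so YFP marks cells in which that transgene was active. The paper did not observe YFP in Thy1+ DETCs of this strain, so YFP did not follow Thy1 in every cell type. The YFP+ libraries were labelled as Sca1-negative although their titles gave them as Sca1-positive. The labels did not say which libraries came from separate animals, and the p-values below therefore measure the spread between libraries.

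Reads on genes ranged from 7781256 to 12982393 a library, and the ribosomal transcript Rn45s took 13.1% to 41.5% of them. The number of genes with a read was uneven within populations, from 20223 to 31107 in Thy1hi and from 20221 to 32129 over all libraries. Markers matched the labels: summed T cell markers reached 17645 to 37525 in DETCs and at most 425 elsewhere, and summed HFSC markers reached 7049 to 10942 in HFSCs and at most 3142 elsewhere. Basal keratinocyte markers were also present in the DETC libraries at 42181 to 58632, except in 1 (DETC a) at 12376, against 76089 to 270574 in the other populations. Levels are given as the deposited normalised values and differences as log2 fold changes of value + 1, which understate the change of genes near 0. In such bulk samples, fewer cells of a type and less RNA per cell cannot be told apart.

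A test of any difference among the 5 populations passed for 38 of the 42 genes (limma F test, adjusted p under 0.05), against 47.9% of all genes tested. Bmp7, Inhba, Bmpr2 and Tgfbr1 did not pass it. Bmpr2, the main type II receptor for BMPs, lay between 1512 and 2818 in all 20 libraries. Tgfbr1, the type I receptor for TGF-beta, lay between 205 and 464. Per kilobase of exon, the mean level of Tgfbi, a matrix protein induced by TGF-beta, was the highest of the pathway in both keratinocyte populations, in YFP+ cells and in HFSCs, from 789.7 in Thy1- to 1589.8 in YFP+ cells. Id1 ranked next in each of these populations, at 216 to 375. In DETCs the order differed, with Smad7 at 550.4, Tgfbr2 at 386, Id2 at 354 and Tgfb1 at 272 ahead of Tgfbi at 248.

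**Figure D1:**
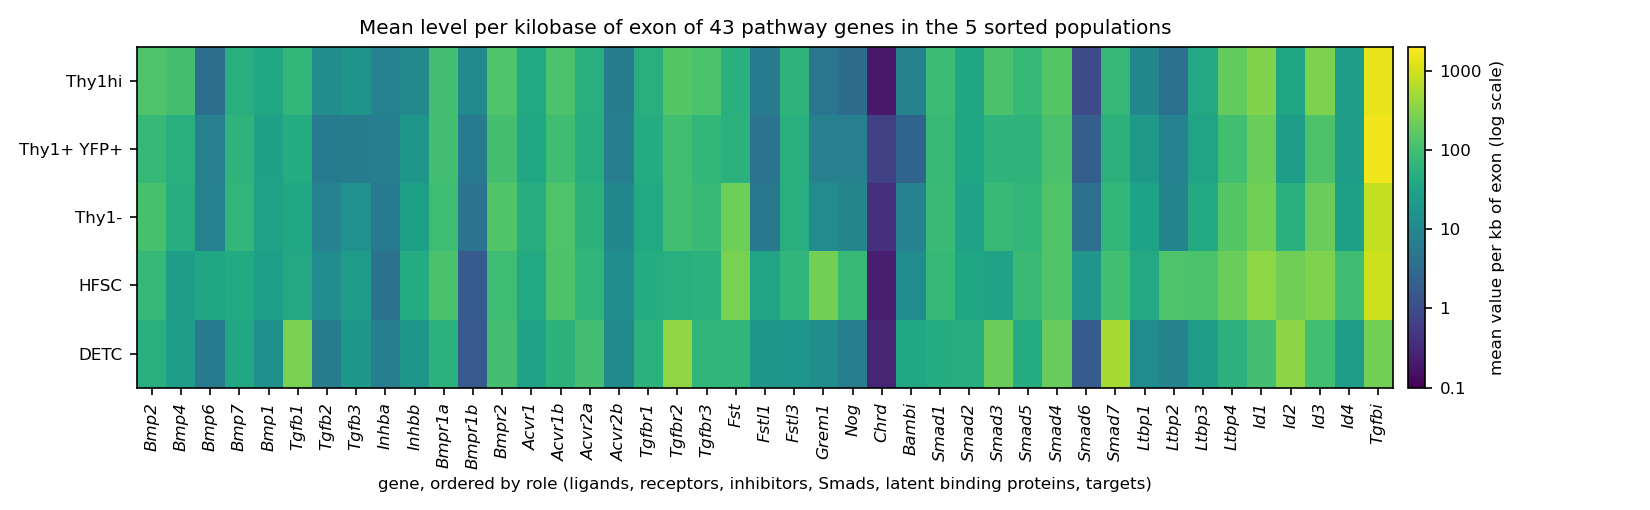
Mean normalised value per kilobase of exon (colour, log scale) of the 43 genes (columns, ordered by role) in the 5 sorted populations (rows). Tgfbi was the brightest gene in 4 populations, Smad7 in DETCs, and Chrd the darkest in all 5.

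HFSCs held more Grem1 and Nog RNA, which encode secreted BMP antagonists, than both keratinocyte populations. Grem1 (gremlin) was at 905, 882, 1274 and 1139 in HFSCs, at 17.7, 13.2, 27.6 and 23.3 in Thy1hi and at 19.5, 52.1, 52.9 and 69.7 in Thy1- cells. Nog (noggin) was at 158, 135, 145 and 119 in HFSCs, at 7.73, 1.32, 6.50 and 6.79 in Thy1hi and at 8.51, 10.4, 18.1 and 24.6 in Thy1- cells. For both antagonists every HFSC library lay above every keratinocyte library. Grem1 was lower in Thy1hi than in HFSCs by a log2 fold change of -5.65 ± 0.44 (SE, limma adjusted p = 1.69e-07), and Nog by -4.57 ± 0.69 (adjusted p = 1.18e-04). Against HFSCs, Thy1- cells had log2 fold changes of -4.53 ± 0.44 for Grem1 (limma adjusted p = 2.38e-06) and -3.20 ± 0.69 for Nog (adjusted p = 0.00778).

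Of the 42 genes, 18 differed between Thy1hi and HFSCs, 5 higher and 13 lower in Thy1hi, where 13.4% of all genes were called (6.51% higher, 6.86% lower). Between Thy1- cells and HFSCs, 11 differed, 2 higher and 9 lower, where 6.08% of all genes were called (2.56% higher, 3.52% lower). Both comparisons used the same HFSC libraries. The median log2 fold change of the pathway genes was -0.12 against 0.02 over all genes for Thy1hi and -0.28 against 0.04 for Thy1-.

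Fst, encoding follistatin, the activin antagonist, did not follow Grem1 and Nog. It was at 1689.9, 1258, 1356 and 677 in HFSCs and at 790.5, 857, 1402 and 1129 in Thy1- cells, so these groups overlapped (log2 fold change -0.22 ± 0.41, limma adjusted p = 0.779). In Thy1hi cells it was at 163, 256, 263 and 301, below all 8 of those libraries. The difference from HFSCs was -2.30 ± 0.41 on the log2 scale (limma adjusted p = 7.43e-04). Fstl1, a secreted follistatin-like glycoprotein, was lower in both Thy1hi (-2.23 ± 0.51, adjusted p = 0.00568) and Thy1- cells (-2.29 ± 0.51, limma adjusted p = 0.01) than in HFSCs. Its highest HFSC value, 356 in HFSC 2, came with the highest summed fibroblast markers among HFSCs, 869 against 234 to 448 in the other 3, and the part of fibroblast RNA was not tested. Fstl1 was at 67.0 to 119.7 in the other 3 HFSC libraries and at 10.7 to 45.3 in the Thy1hi and Thy1- libraries.

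Latent TGF-beta binding proteins are matrix proteins, most of which hold TGF-beta in its inactive form (Ltbp2 is known not to), and 3 of the 4 were lower in Thy1hi than in HFSCs. Ltbp2 was at 1062, 1052, 1236 and 851 in HFSCs, at 16.6, 31.6, 43.1 and 30.1 in Thy1hi and at 32.8, 72.9, 94.7 and 86.1 in Thy1- cells. The gap between HFSC and keratinocyte libraries was about as wide as for Grem1, with log2 fold changes of -5.13 ± 0.54 for Thy1hi (limma adjusted p = 2.34e-06) and -3.95 ± 0.54 for Thy1- (adjusted p = 1.34e-04). Ltbp3 was lower in both populations without overlap, by -1.63 ± 0.25 and -1.48 ± 0.25. Ltbp1 was lower in Thy1hi (83.9 to 127 against 277 to 518, -2.05 ± 0.31, limma adjusted p = 1.34e-04), and in Thy1- cells, at 253 to 390.2, it did not pass the test. Ltbp4 was at 786 to 2224 in HFSCs and at 929 to 1651 in Thy1hi cells and did not pass the test.

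Among the Smads, the inhibitory Smad6, which preferentially blocks BMP receptors, was higher in HFSCs. It was at 62.3, 61.9, 58.8 and 39.9 there, at 1.10, 1.32, 3.25 and 6.79 in Thy1hi and at 10.9, 10.4, 6.31 and 20.5 in Thy1- cells. All 4 HFSC libraries lay above all 8 keratinocyte libraries. The log2 fold change was -3.97 ± 0.56 in Thy1hi (limma adjusted p = 6.56e-05) and -2.21 ± 0.56 in Thy1- cells (adjusted p = 0.0228), the latter not called without Thy1- 1, 2 or 3 or HFSC 1 or 3 (adjusted p up to 0.0857). Smad3 went the other way. It was at 207, 173, 196 and 96.0 in HFSCs, at 701, 694, 649 and 529.7 in Thy1hi and at 629, 399, 474 and 236 in Thy1- cells. Smad3 was higher than in HFSCs by 1.98 ± 0.27 in Thy1hi (limma adjusted p = 5.01e-05) and by 1.34 ± 0.27 in Thy1- cells (adjusted p = 0.00528). Smad1, Smad2, Smad4, Smad5 and Smad7 did not pass the test in either comparison.

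Receptors that were higher in Thy1hi than in HFSCs were Tgfbr2, Tgfbr3 and Bmpr1b. Tgfbr2, the TGF-beta type II receptor, was at 538, 475, 455 and 243 in HFSCs, at 1229.8, 1268, 1173 and 1153 in Thy1hi and at 1059, 661, 889.8 and 689 in Thy1- cells. No 2 of these populations overlapped, and Thy1- cells lay in between (log2 fold change over HFSCs 1.55 ± 0.26, limma adjusted p = 3.54e-04, and 0.98 ± 0.26, adjusted p = 0.0281, which rose to as much as 0.117 without Thy1- 1, Thy1- 3 or HFSC 4). Tgfbr3, the co-receptor betaglycan, was higher in Thy1hi than in HFSCs by 1.17 ± 0.19 (limma adjusted p = 3.19e-04). Bmpr1b, a type I BMP receptor, was at 81.7, 75.1, 59.3 and 43.7 in Thy1hi and at 3.46, 16.3, 10.7 and 11.2 in HFSCs (2.65 ± 0.57, limma adjusted p = 0.0034). Its relative Bmpr1a was at 646 to 726 and at 676 to 791 in the same populations and did not pass the test.

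The BMP ligands diverged in direction between the same populations. Bmp4 was at 243, 221, 276 and 226 in Thy1hi against 84.3, 39.1, 78.0 and 32.2 in HFSCs, a log2 fold change of 2.14 ± 0.48 (limma adjusted p = 0.00481). Bmp6 was at 3.31, 14.5, 19.5 and 17.5 in Thy1hi against 167, 191, 121 and 37.8 in HFSCs, a log2 fold change of -3.14 ± 0.57 (adjusted p = 8.69e-04). Neither pair of groups overlapped. In Thy1- cells Bmp6 was at 15.8 to 44.3, overlapping HFSCs, and its call (-1.95 ± 0.57, limma adjusted p = 0.048) was lost without Thy1- 1, 2 or 3 or HFSC 1, 2 or 3 (adjusted p up to 0.166). Inhbb, an activin subunit, was lower in Thy1hi than in HFSCs (44.1 ± 9.02 against 189 ± 144, SD, n = 4 each, limma adjusted p = 0.0028), and its relative Inhba, at 24.3 to 81.3 and 25.0 to 28.9, did not pass the test. The activin receptor Acvr2b was also called lower in Thy1hi (-0.99 ± 0.31, limma adjusted p = 0.0351), but not when Thy1hi 2, Thy1hi 3, HFSC 2 or HFSC 4 was left out (adjusted p up to 0.141).

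**Figure D2:**
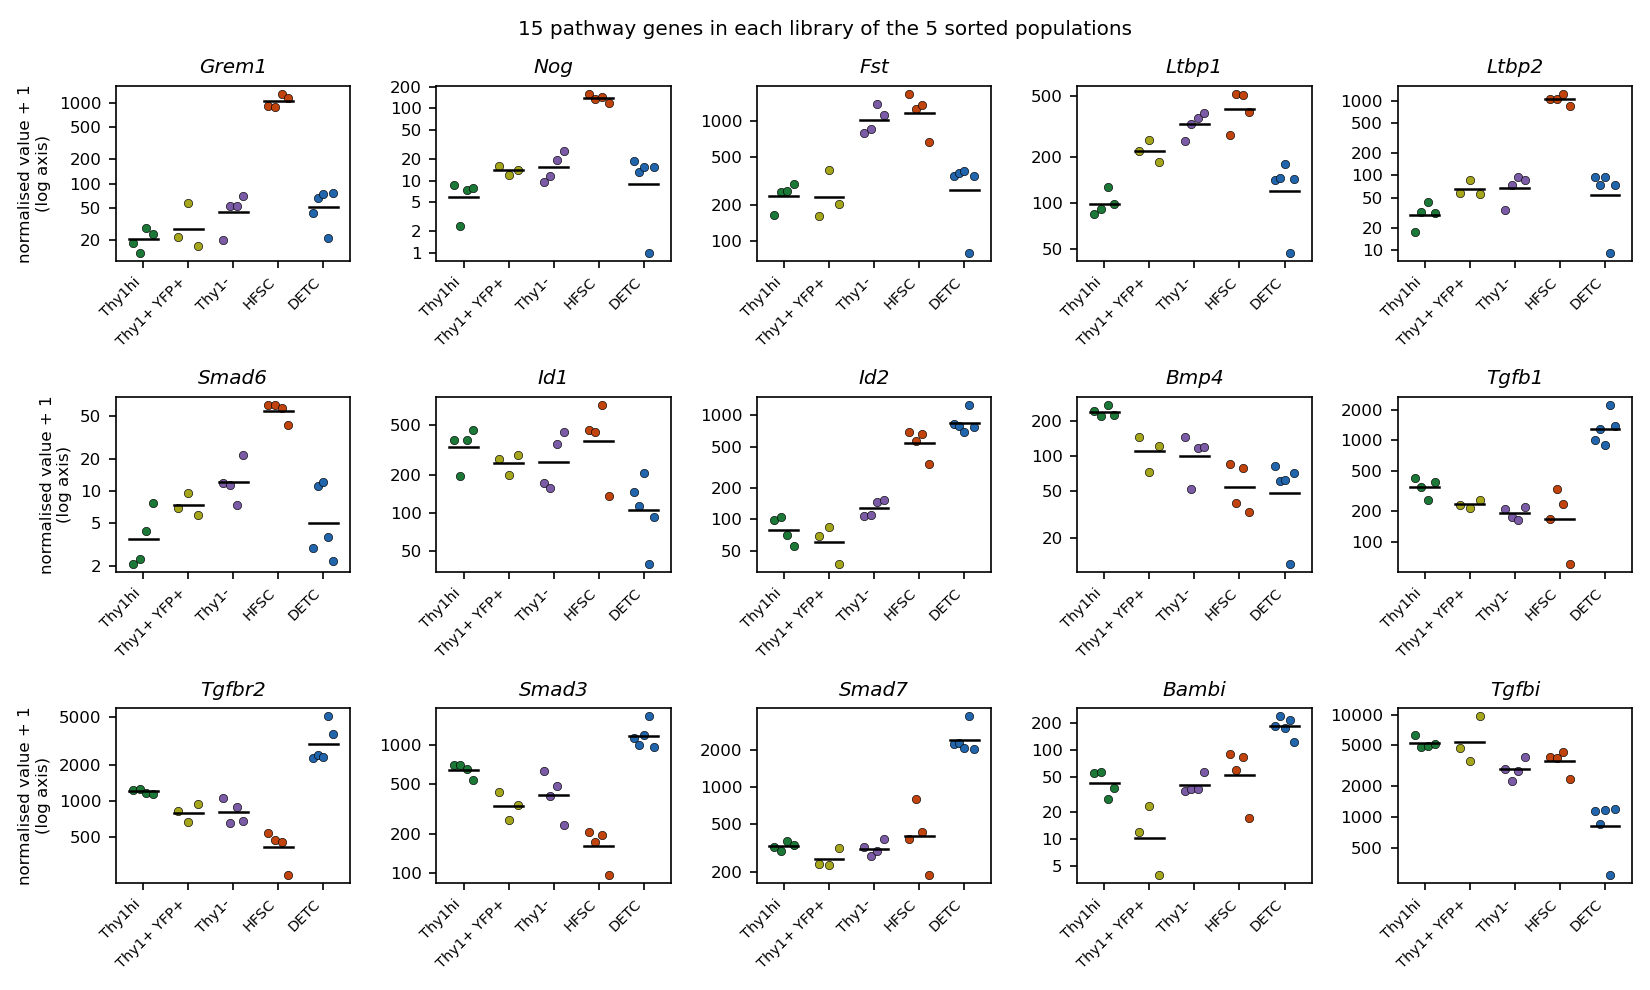
Normalised value + 1 (log axis) of 15 pathway genes in each library (points) of the 5 sorted populations, with the mean of the log values as a line. Grem1, Nog, Ltbp2 and Smad6 were highest in all 4 HFSC libraries, Tgfb1, Tgfbr2, Smad7 and Bambi in all 5 DETC libraries, and Fst was high in Thy1- cells and HFSCs.

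The Id genes, which encode helix-loop-helix inhibitors that rise on BMP signalling, did not move as 1 group. Id2 was at 681, 566, 665 and 339.8 in HFSCs, at 97.2, 104, 69.1 and 54.3 in Thy1hi and at 107, 109.9, 147 and 152 in Thy1- cells. It was lower than in HFSCs in both, by -2.77 ± 0.28 in Thy1hi (limma adjusted p = 1.48e-06) and by -2.09 ± 0.28 in Thy1- cells (adjusted p = 1.06e-04). Id4 was at 352, 447, 381 and 274 in HFSCs against 73.2 to 135 in Thy1hi (-1.88 ± 0.51, limma adjusted p = 0.0173) and 65.7 to 153 in Thy1- cells (-1.78 ± 0.51, adjusted p = 0.0422), with no overlap. Without Thy1hi 3 the first difference was not called (adjusted p = 0.0554), and the second was not called without Thy1- 1, 2 or 3 or HFSC 1, 2 or 3 (adjusted p up to 0.15). Id1 was at 450.2, 438, 718 and 135 in HFSCs, 376, 195, 376 and 451 in Thy1hi and 170.3, 157, 348 and 434 in Thy1- cells. The 3 groups overlapped (Thy1hi against HFSCs -0.15 ± 0.48, limma adjusted p = 0.864). Id3 did likewise, at 140.1 to 773 in HFSCs, 371 to 669 in Thy1hi and 325 to 441 in Thy1- cells. For both genes HFSCs overlapped Thy1- cells through HFSC 4 alone, at 135 for Id1 and 140.1 for Id3. HFSC 1, 2 and 3 lay above every Thy1- library. Langerhans cells express Id2, and summed Langerhans markers were 2025 to 4306 in 3 HFSC libraries against 60.96 in HFSC 4, the library with the lowest HFSC value of Id2, 339.8, and their part in the Id2 difference was not tested.

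The letters upstream of 4 of these genes are shown because BMP-activated Smads bind the GC-rich GGCGCC element and Smad3 and Smad4 bind CAGAC, and because Smad6, Id2 and Id4 are BMP targets that were higher in HFSCs than in keratinocytes, while Id3 is one that overlapped between them. The 250 bases before the RefSeq start site (build GRCm38.p6) are given 5′ to 3′ on the gene's strand, for Smad6 at chr9:64022060-64022309 (minus strand), Id2 at chr12:25096093-25096342 (minus), Id4 at chr13:48260866-48261115 (plus) and Id3 at chr4:136143572-136143821 (plus). Matches to GGCGCC, which is its own reverse complement, or to CAGAC on either strand are in capitals.
Smad6: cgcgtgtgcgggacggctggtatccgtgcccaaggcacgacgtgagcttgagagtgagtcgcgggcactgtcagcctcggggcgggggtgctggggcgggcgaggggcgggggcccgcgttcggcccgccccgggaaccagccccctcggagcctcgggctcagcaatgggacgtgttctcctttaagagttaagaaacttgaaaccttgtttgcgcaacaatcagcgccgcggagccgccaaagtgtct
Id2: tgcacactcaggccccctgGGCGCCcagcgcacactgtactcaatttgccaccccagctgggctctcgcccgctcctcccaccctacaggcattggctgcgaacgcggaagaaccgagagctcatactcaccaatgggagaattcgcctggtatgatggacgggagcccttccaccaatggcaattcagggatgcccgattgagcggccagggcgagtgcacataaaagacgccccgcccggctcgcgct
Id4: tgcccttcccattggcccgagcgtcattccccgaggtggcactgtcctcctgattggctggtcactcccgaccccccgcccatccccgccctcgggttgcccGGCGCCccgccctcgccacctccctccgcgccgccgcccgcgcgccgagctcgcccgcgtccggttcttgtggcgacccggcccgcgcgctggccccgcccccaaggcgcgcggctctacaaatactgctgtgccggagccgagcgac
Id3: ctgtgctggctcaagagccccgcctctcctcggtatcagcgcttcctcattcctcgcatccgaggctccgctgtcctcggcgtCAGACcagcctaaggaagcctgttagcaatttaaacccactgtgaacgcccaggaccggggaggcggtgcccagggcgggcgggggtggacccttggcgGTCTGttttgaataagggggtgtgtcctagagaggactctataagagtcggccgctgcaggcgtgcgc
Id2 and Id4 each held 1 GGCGCC, 231 and 148 bases before the start, Id3 held 2 matches to CAGAC, 167 and 68 bases before it, and the Smad6 window held neither motif. Over 32851 mouse promoters of the same length, GGCGCC occurred in 9.59% and CAGAC in 42.2%, and among the 31 pathway genes with an entry they occurred in 32.3% and 48.4%. The first shares count each promoter singly, whereas a pathway gene counted if any of its promoters held the motif, so the shares are not of like units. These matches describe letters only.

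Between Thy1hi and Thy1- keratinocytes, Fst and Ltbp1 were lower in Thy1hi. With all populations in 1 fit these were 2 of 42 genes called, with none higher, where 0.337% of all genes were called (0.116% higher, 0.221% lower). The Fst values given above, 163 to 301 in Thy1hi and 790.5 to 1402 in Thy1-, did not overlap (log2 fold change -2.08 ± 0.41, limma adjusted p = 0.0339). Ltbp1 was at 83.9, 90.9, 127 and 98.0 in Thy1hi and at 253, 327, 363 and 390.2 in Thy1- cells (-1.73 ± 0.31, limma adjusted p = 0.0199). An exact two-sided permutation test gave p = 0.0286 for each, the smallest that 4 against 4 libraries allow. Any gene without overlap gets this value, so the test adds nothing to the lack of overlap. Fst was not called without any 1 of Thy1hi 1, 2 and 3 or Thy1- 2, 3 and 4 (adjusted p up to 0.186), and Ltbp1 not without Thy1hi 1 or 2 or Thy1- 2, 3 or 4 (adjusted p up to 0.094), while the log2 fold changes stayed between -2.20 and -1.90 and between -1.85 and -1.65.

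Same-numbered Thy1hi and Thy1- libraries deviated together, and with the number as a block (the libraries numbered 4 had 20223 and 21150 genes with a read, the others 27017 to 32129) 13 of the 42 genes passed, 7 higher and 6 lower in Thy1hi, where 6.61% of all genes were called (3.42% higher, 3.19% lower). The 6 lower were Fst (limma adjusted p = 5.44e-05), Ltbp1 (1.59e-04), Ltbp2 (0.0104), Inhbb (0.00344), Smad6 (0.0436) and Bmp7 (0.0492). Inhbb was at 35.3, 39.5, 56.1 and 45.6 in Thy1hi and at 83.9, 129.6, 106 and 161 in Thy1- cells, and lower in every pair. The 7 higher were the ligands Bmp4 (1.25 ± 0.21, limma adjusted p = 0.00593) and Tgfb1 (0.87 ± 0.12, adjusted p = 0.00269), the receptors Bmpr1b (1.30 ± 0.22, adjusted p = 0.00666), Tgfbr2 and Tgfbr3, Smad3, and Tgfbi (0.86 ± 0.13, adjusted p = 0.00392). Tgfb1 was at 427, 349, 257 and 384 in Thy1hi and at 210.4, 172, 163 and 219.7 in Thy1- cells. Tgfbi was at 6349, 4839, 4943 and 5189 against 2964, 2226, 2844 and 3879. Neither gene overlapped between the populations, although without the block their adjusted p was 0.539 and 0.595. Bmpr1b was higher in Thy1hi by 1.11 to 1.44 on the log2 scale in the 4 pairs, and Tgfbr3 by 0.50 to 0.61. Id1 was higher in Thy1hi in 4 of 4 pairs, by 0.06 to 1.14, and Grem1 was lower in 4 of 4 pairs, with differences of -1.91 to -0.13, but neither passed (limma adjusted p = 0.224 and 0.0711 with the block).

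**Figure D3:**
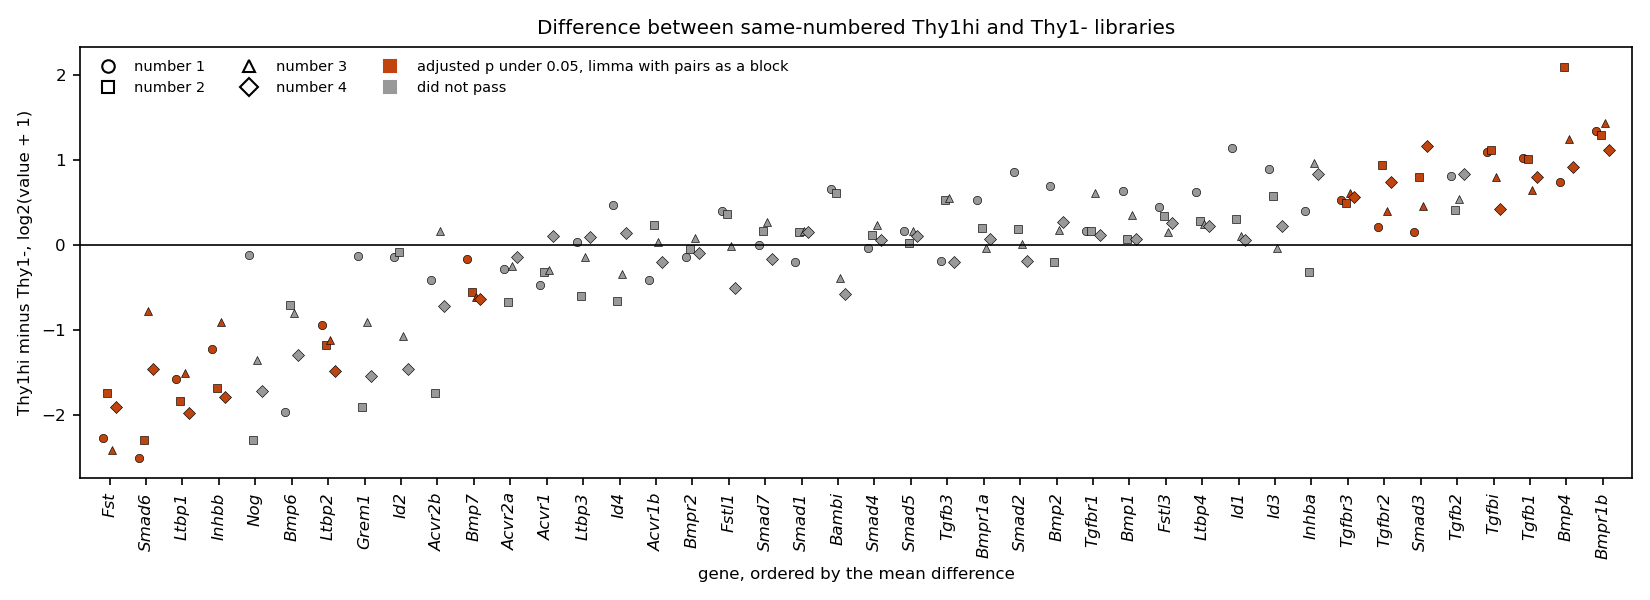
Difference in log2(value + 1) between Thy1hi and Thy1- libraries of the same number (vertical axis, 1 symbol a pair) for 42 pathway genes ordered by their mean difference, with the 13 genes that passed with the number as a block in orange. Fst and Ltbp1 lay at -1.51 or lower in all 4 pairs and Bmpr1b at 1.11 or higher.

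Other markers differed between the same libraries, and their part in these results was not tested. Summed basal keratinocyte markers were 187875 to 261309 in Thy1hi and 89525 to 157825 in Thy1- cells, with no overlap and higher in Thy1hi like Tgfbi, Tgfb1 and Bmp4. Summed HFSC markers were 1155 to 1806 in Thy1hi and 2572 to 3142 in Thy1- cells, again with no overlap and lower in Thy1hi like Fst and Ltbp1. Within this sum, Sox9 (579.6 to 782 and 1733 to 1823) and Gli1 (9.22 to 17.9 and 18.9 to 32.0) did not overlap. Cd34 (47.4 to 75.6 and 43.8 to 102.5), Lgr5, Lhx2, Tbx1 and Nfatc1 had lower means in Thy1hi but overlapped. Of the genes highest in HFSCs, Ltbp2 and Smad6 were also lower in Thy1hi with the block, and Grem1 and Nog did not pass. Differentiated keratinocyte markers were 8730 to 27012 and 26816 to 40231. T cell markers, at 237 to 425 and 233 to 371, overlapped, against 17645 in the lowest DETC library. Fibroblast markers were 214 to 2068 in Thy1hi (median 758) and 155 to 363 in Thy1- cells (median 221), higher in Thy1hi with overlap. The members of this list differed. Col1a1 (means 381 and 38.4), Col3a1 (208 and 25.1), Col1a2, Dcn and Lum had higher means in Thy1hi. Pdgfra (31.2 and 33.6), Col6a3 (67.7 and 66.0) and Dpt (1.87 and 2.2) had similar means. Langerhans markers were 439 to 1088 (median 778) and 847 to 1715 (median 1379), lower in Thy1hi with overlap.

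Fst was also low in YFP+ cells, which were sorted through the reporter. Fst was at 162, 391 and 204 in YFP+ libraries, all below the 4 Thy1- libraries, and it was the only 1 of 42 genes called against Thy1- (log2 fold change -2.11 ± 0.45, limma adjusted p = 0.0294), where 0.761% of all genes were called (0.546% higher, 0.215% lower). The call was lost without any 1 of the 4 Thy1- libraries, YFP+ 1 or YFP+ 3 (adjusted p up to 0.185). Against Thy1hi, Fst differed by -0.03 ± 0.45, and 0 of the 42 genes were called by limma, where 0.0116% of all genes were (1561 genes at an unadjusted p under 0.05), while DESeq2 on whole reads called 4. These 2 comparisons share the YFP+ libraries. Ltbp1 in YFP+ cells was at 220.3, 260.1 and 185, above every Thy1hi library and overlapping Thy1- cells at their lowest value, 253. Bmp4, at 147, 72.8 and 122 in YFP+ cells, lay below every Thy1hi library. So did Tgfbr2 (667 to 941), Tgfbr3 (387 to 571) and Smad3 (258 to 425), which like Bmp4 were higher in Thy1hi than in Thy1- with the block. Tgfb1, Bmpr1b and Tgfbi, also higher there, overlapped with Thy1hi in YFP+ cells. The share of all genes lying below Thy1hi in this way was not counted. Against Thy1hi the median log2 fold change was -0.27 for the pathway genes and -0.04 over all genes. Bambi, a pseudoreceptor that dampens TGF-beta and BMP signalling, was at 11.0, 22.4 and 2.97 in YFP+ cells, below the 26.8 to 55.3 of Thy1hi, and did not pass the limma test.

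DETCs differed from Thy1hi cells and from HFSCs in most of the pathway, and were not tested against Thy1- or YFP+ cells. Against Thy1hi, 26 of 42 genes differed (10 higher and 16 lower, where 19.9% and 16.6% of all genes were, 36.6% in all). Against HFSCs, 28 of 42 differed (7 higher and 21 lower, where 21.2% and 18.5% of all genes were, 39.7% in all). Every DETC library lay above all other libraries for Tgfb1, Tgfbr2, Acvr2a, Bambi, Smad3, Smad4, Smad7 and Id2, the last by only 681.47 in DETC 3 against 681.04 in HFSC 1. The share of all genes that separated DETCs in this way was not counted. Smad4 was nonetheless not called against Thy1hi. Tgfb1 was at 1016, 1289, 899, 2246 and 1402 in DETCs and at most 427 in the other 15 libraries, and Tgfbr2 was at 2298, 2404, 2312, 5137 and 3629 against at most 1268. Smad7, the inhibitor of TGF-beta signalling that this pathway itself induces, was at 2248, 2271, 2066, 3816 and 2040.5 against at most 795. None of these 3 genes overlapped with any other population. Against Thy1hi the log2 fold changes were 1.90 ± 0.34 for Tgfb1 (limma adjusted p = 1.77e-04), 1.31 ± 0.25 for Tgfbr2 (adjusted p = 2.60e-04) and 2.88 ± 0.28 for Smad7 (adjusted p = 5.85e-08), and against HFSCs 2.96 ± 0.34, 2.86 ± 0.25 and 2.61 ± 0.28. Smad3 was higher in DETCs than in Thy1hi (1198 ± 291, SD, n = 5, against 644 ± 79.3, n = 4, limma adjusted p = 0.0112) and Bambi was at 187, 242, 178, 219.5 and 121 against 16.1 to 90.04 in HFSCs (1.81 ± 0.47, limma adjusted p = 0.00428). The activin type II receptor Acvr2a was at 485 to 777 in DETCs, above every Thy1hi value of 221 to 333 (1.09 ± 0.18, limma adjusted p = 5.22e-05).

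Id2, which T cells and other lymphocytes are known to require, was at 815, 793, 681, 1253 and 767 in DETCs, far above Thy1hi (3.41 ± 0.27, limma adjusted p = 3.52e-09). Against HFSCs, whose highest value was also 681, it did not pass the test (0.63 ± 0.27, limma adjusted p = 0.0649). Among its relatives, Id1 in DETCs was at 145, 112, 206, 38.4 and 91.3 against 349.5 ± 109 in Thy1hi (SD, n = 4, limma adjusted p = 0.00628), and Id3 had a log2 fold change of -1.64 ± 0.43 (adjusted p = 0.00497). Both were lower in DETCs, whereas Id4, at 20.6 to 169 against 73.2 to 135, did not pass the test (-0.31 ± 0.49, limma adjusted p = 0.686). Tgfbi fell furthest of the genes against Thy1hi after Bmpr1b, by -2.68 ± 0.36 (limma adjusted p = 5.52e-06). Among BMP genes, the ligands Bmp2 and Bmp4 and the receptors Bmpr1a and Bmpr1b were lower. Smad1 (292 ± 47.1 against 566 ± 82.5) and Smad5 (339 ± 44.98 against 570.1 ± 123, SD, n = 5 and 4) were lower too. The ligands Bmp6 and Bmp7 and the receptors Bmpr2 and Acvr1 were not called. Ltbp4 was lower at 377 ± 138 against 1214 ± 335. Bmp1, Tgfb2, Acvr1b, Tgfbr3, Fstl3 and Ltbp3 were the other genes lower in DETCs than in Thy1hi. Against HFSCs the widest gaps were those of the genes that marked HFSCs, Grem1 (-4.32 ± 0.42, limma adjusted p = 6.93e-08), Ltbp2 (-4.26 ± 0.51), Nog (-3.96 ± 0.65) and Smad6 (-3.47 ± 0.54). Grem1 in DETCs, at 43.05, 66.1, 74.3, 20.6 and 76.9, was nonetheless called higher than in Thy1hi, with overlapping libraries and not without Thy1hi 2 (1.32 ± 0.42, limma adjusted p = 0.0163, and 0.0588 without that library). With the number as a block, which leaves 3 pairs of DETC and HFSC libraries, 6 genes were higher and 22 lower (22.6% and 19.6% of all genes, 42.2% in all): the Smad4 rise over HFSCs was lost (limma adjusted p = 0.0957, from 0.0168) and Bmp2 was called lower (adjusted p = 0.00153, from 0.376).

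Library DETC a lay apart in both directions, with the lowest keratinocyte marker sum, 12376, and the highest T cell marker sum, 37525. It had the lowest DETC values of Fst (79.6 against 346 to 386), Ltbp1 (46.6 against 141 to 179), Ltbp2 (8.23 against 74.2 to 94.1) and Tgfbi (274 against 851 to 1207), and the highest of Tgfb1, Tgfbr2, Smad3, Smad7 and Id2. Whichever 1 library was left out, the log2 fold change over Thy1hi stayed between 2.72 and 2.94 for Smad7 and between 1.70 and 2.03 for Tgfb1. Genes that were called lower in DETCs against Thy1hi kept their sign without any 1 library, with Ltbp3 (-0.67 ± 0.23, limma adjusted p = 0.0287) no longer called without DETC a, Thy1hi 3 or Thy1hi 4 (adjusted p up to 0.136). The share of keratinocyte RNA in the values of the other 4 DETC libraries was not tested.

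**Figure D4:**
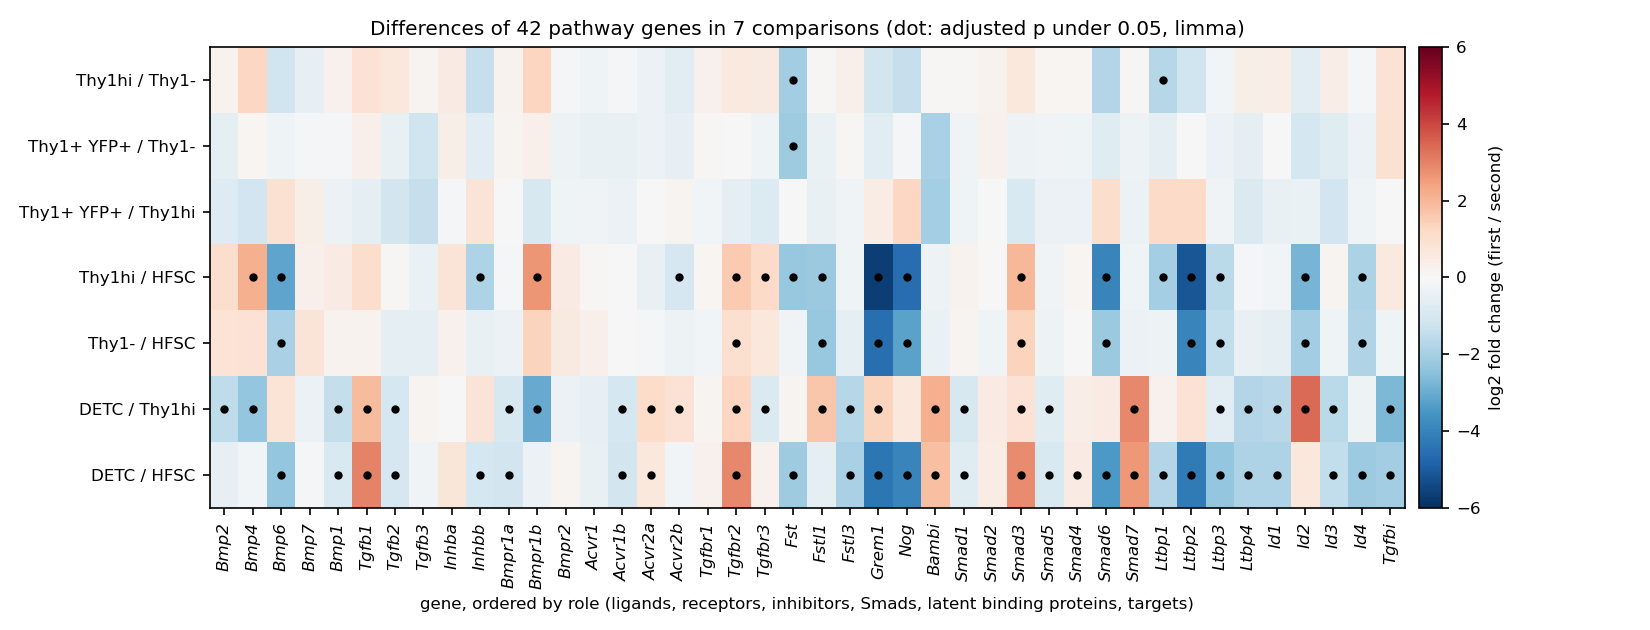
Log2 fold change (colour, first over second population) of 42 pathway genes (columns, ordered by role) in 7 comparisons (rows), with a dot where the limma adjusted p was under 0.05. The 2 comparisons of keratinocytes with HFSCs hold 18 and 11 dots, those of DETCs 26 and 28, and those among keratinocyte populations 2, 1 and 0.

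The other genes of these pathways were 74 further ligands, receptors, antagonists, Smad partners and targets, of which 42 passed the filter. Between Thy1hi and Thy1- cells 0 were higher and 2 lower, where 0.116% and 0.221% of all genes were: Itgb8, an integrin subunit that activates latent TGF-beta (21.0 to 73.7 against 126 to 281, log2 fold change -2.35, limma adjusted p = 0.00703), and Sostdc1, a BMP and Wnt antagonist (125 to 211 against 423 to 1184, -2.13, adjusted p = 0.0259). Against HFSCs, 7 were higher and 7 lower in Thy1hi, where 6.51% and 6.86% of all genes were, and 0 were higher and 4 lower in Thy1-, where 2.56% and 3.52% were. Ctgf, a matricellular target of TGF-beta, was at 936 to 3261 in HFSCs and 28.7 to 82.5 in Thy1hi (-5.37, limma adjusted p = 2.66e-06), and Smad9, a further BMP Smad, was at 66.2 to 115 against 3.31 to 9.22 (-3.96, adjusted p = 1.48e-06). Thbs1, thrombospondin 1, an activator of latent TGF-beta, was at 24099 to 28818 in Thy1hi and 865 to 8843 in HFSCs (2.67, limma adjusted p = 0.00265). Against Thy1hi, 10 were higher and 12 lower in DETCs, where 19.9% and 16.6% of all genes were. Itgae, the TGF-beta-induced integrin of intraepithelial T cells, was at 1757 to 4028 in DETCs and 13.0 to 52.4 in Thy1hi (6.45, limma adjusted p = 1.09e-09), and Runx2 was at 774 to 2210.4 against 21.9 to 44.6 (5.15, adjusted p = 1.09e-09).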

How the data were processed

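Cells were sorted from dorsal epidermis and sequenced in 20 libraries. Per the study's methods, the authors aligned single reads with STAR to mm10, counted them with featureCounts and tested with DESeq2. The versions of STAR and featureCounts are not given in the sources used here. The deposited table holds 1 signal value per gene and library, which the authors made by dividing counts by a size factor: values were whole multiples of 1 read (within 0.1 of a read) for 99.995% to 100% of entries, with size factors from 0.729 to 1.43. Per the labels, 2 of the 5 DETC columns (named a and b here) match no sample's number. One deposited Thy1- column (replicate 4) had 3212 genes in another row order. Restoring it raised its correlation with the other Thy1- libraries over those genes from 0.0563 to 0.935 (0.928 for the remaining genes). Nog was the 1 pathway gene moved, from a deposited 0 to 24.6.

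Values were tested as log2(value + 1) with limma 3.58.1 (trend, R 4.3.3, 1 mean per population over all 20 libraries), with Benjamini-Hochberg adjustment over 17204 genes and a threshold of 0.05. Because the table is normalised, the count tests edgeR 4.0.16 (quasi-likelihood) and DESeq2 1.42.0 on the recovered whole reads were alternatives. On simulated Thy1hi and Thy1- libraries (16626 genes) limma recovered 13 of 62 genes changed 2-fold. It recovered 54 of 70 changed 4-fold and 64 of 68 changed 8-fold, and called 4 of 16426 unchanged genes. The simulated libraries were drawn independently, without pairs, from 1 mean per gene over all populations. Only genes with a mean of at least 20 reads were changed, so recovery of weaker genes was not measured. Same-numbered libraries were taken as pairs where every pair's deviations from the group means correlated above 0.1, which held for Thy1hi with Thy1- (4 pairs, r from 0.293 to 0.716) and for DETCs with HFSCs (3 pairs, r from 0.170 to 0.333) and for no other comparison. Libraries with different numbers reached r = 0.514 for Thy1hi with Thy1- (2 of 12 above 0.1) and r = 0.371 for DETCs with HFSCs (4 of 17 above 0.1). For DETCs with HFSCs the highest r thus came from libraries with different numbers, and the block results there rest on an uncertain pairing. The pairing comes from the numbers in the titles and this check, and no source states a shared animal or day. The study's legends give mice as replicates for the heatmap and pooled mice for the sorting, and do not say which libraries shared mice. The heatmap's mouse counts for DETCs and HFSCs differ from the library counts here. The methods name a kit for small RNA libraries and a kit for mRNA libraries and assign no library to a batch, so no batch term was fitted.

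The 43 genes, the 74 other pathway genes and the marker lists were chosen with earlier results of these data known. Pathway genes were named where called without overlap between libraries, or as nearest relatives of such genes, and Grem1, Fst and Id1 always; of the other pathway genes, those named were among the 3 widest differences in each direction. Gene lengths came from the GENCODE M21 exons and promoters from RefSeq. Alternatives covered the pseudocount (0.1 and 10), filters, scaling, row order, fits of 2 populations alone, the replicate block, each library left out, and, chosen after the data were seen, the number of genes with a read as a covariate. The authors' size factors were kept throughout, so values of a library with a large Rn45s share rest on them.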

Additional observations from a re-analysis of the deposited data

Results flagged for a closer look

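Among 168 groups of 4 or 5 libraries, 19 had 1 library far from the rest of its group, where chance flags about 1 in 20 groups (8.4 of 168). Library DETC a accounted for 9 of the 19. It was low for Bmpr1a (209.9 against 355 in the next library), Fst (79.6 against 346), Ltbp1 (46.6 against 141), Ltbp2 (8.23 against 74.2) and Ltbp3 (127.6 against 229), and high for Smad2 (594 against 409.5), Smad4 (1040.0 against 689), Smad7 (3816 against 2271) and Id2 (1253 against 815). Its keratinocyte and T cell marker sums are given in the report.

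Thy1- 4 was high for Bmp7 (414.0 against 248), Bambi (55.7 against 35.9) and Ltbp4 (1419 against 843). HFSC 2 was high for Inhbb (404 against 144) and Acvr1 (267 against 177), HFSC 3 for Bmpr2 (1948 against 1546) and HFSC 4 for Acvr2b (72.2 against 46.7), while HFSC 4 was low for Smad6 (39.9 against 58.8). Thy1hi 1 was high for Bmpr1a (726 against 649), and Thy1hi 2 was low for Acvr2b (13.2 against 28.5).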

How the results depend on the processing

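Over 124 fold changes of pathway genes refitted 2522 times, 2364 refits kept their direction and side of the threshold, 134 lost the call, 15 gained one and 9 changed sign. All 9 were Fst in YFP+ against Thy1hi cells, a difference of -0.03 that became 0.038 without Rn45s in the totals, 0.052 by edgeR, 0.040 by DESeq2 and 0.079 with the replicate block, and lay between -0.40 and 0.24 with 1 library left out; the cause was not tested. With the replicate block the calls over all genes went from 58 to 1137 for Thy1hi against Thy1- (pathway genes from 2 to 13), where the numbers were taken as pairs. The block changed 2 pathway calls of DETCs against HFSCs, Smad4 and Bmp2. Elsewhere the numbers were not taken as pairs, and the block gave 1369 calls for Thy1hi against HFSCs (2300 without), 329 for Thy1- against HFSCs (1046, with pathway genes from 11 to 7) and 9 for YFP+ against Thy1hi (2). DESeq2 on whole reads gave 210, 2402, 113 and 562 calls for Thy1hi against Thy1-, Thy1- against HFSCs, YFP+ against Thy1hi and YFP+ against Thy1-, and 4 pathway genes in each YFP+ comparison. Fits of 2 populations alone gave 95, 640, 16 and 83 calls for the same 4 comparisons. For YFP+ against Thy1hi a pseudocount of 10 gave 25 calls, quantile normalisation 6 and the covariate 5. For YFP+ against Thy1- the covariate left 0 pathway genes and no filter left 69 calls of 131. For Thy1- against HFSCs a pseudocount of 0.1 and no filter each left 7 pathway genes. With 1 library left out, calls ran from 13 to 38 for Thy1hi against Thy1- (pathway genes 0 to 2), from 511 to 1965 for Thy1- against HFSCs (7 to 12), from 0 to 4 for YFP+ against Thy1hi and from 10 to 312 for YFP+ against Thy1- (0 to 4). Pathway counts for DETCs stayed at 24 to 30 in every alternative run. No alternative was run for the test of any difference among the populations. At 7781256 to 12982393 reads a library, genes such as Smad6 and Nog rest on few reads in keratinocytes.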

Other observations

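Several receptors and ligands outside the 43 genes separated the populations. Acvrl1, the BMP type I receptor best known from endothelium, was at 57.7 to 93.2 in HFSCs and 9.73 to 27.1 in Thy1- cells (log2 fold change -2.18, limma adjusted p = 2.08e-04), while summed endothelial markers were 31.0 to 58.2 and 35.2 to 108. Bmp3, a BMP ligand that opposes other BMPs, was at 404 to 444 in Thy1hi and 24.7 to 103 in DETCs (-2.53, limma adjusted p = 9.70e-06). Bmp8a was at 7.83 to 61.7 in DETCs and 0.81 to 5.27 in Thy1hi (2.93, limma adjusted p = 0.00406), with its highest value in DETC a.

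Values near 0 rest on few reads, and same-group libraries differed in the number of genes with a read. Batches, animals and sorting days could not be assigned to libraries.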
